A study of Mus musculus with 6 samples.

Results

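The genes described here are 38 genes of cholesterol and fatty acid metabolism, listed by name with earlier results of these data known. Of these, 37 were measured with a probe set of their own among the 19938 genes of the array. They comprise 14 enzymes of sterol synthesis, 5 regulators and carriers of sterols, 10 genes of fatty acid synthesis and 8 of fatty acid oxidation. The sterol gene Acat2 was listed as well and is not analysed here. Expression was measured in enterospheres, free-floating spheres of enteric neural progenitor cells grown from the gut muscle of newborn C57BL/6 mice (stage P0). All spheres were expanded with epidermal and fibroblast growth factor in a medium with N2 and B27 supplement. They were then moved for 1 day to differentiation medium with N2 and ascorbic acid phosphate and without the growth factors. The T3 group held 3 samples kept for 1 further day with triiodothyronine (T3), the receptor-binding thyroid hormone, at 100 nM (the labels write nm, read here as nM), and the control group 3 samples kept as long without it. Each sample pooled cells of 3 mice and was hybridised to 1 Affymetrix mouse gene array. Nothing in the labels says that the samples of a group were separate cultures, so the p-values reflect only sample-to-sample spread, which may be technical.

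Cholesterol is built from acetyl-CoA through mevalonate, farnesyl diphosphate, squalene and lanosterol. The transcription factors SREBP1 and SREBP2 drive the genes of this route and of fatty acid synthesis, and the INSIG proteins hold them in the endoplasmic reticulum when sterols are plentiful. Fatty acids are made from cytosolic acetyl-CoA, then elongated and desaturated, and are burned in mitochondria after the carnitine shuttle has carried them in, with CPT1 as its gate. In liver, thyroid hormone is known to raise both arms, through lipogenic genes such as Thrsp, Me1 and Fasn and through Cpt1a. In the nervous system the routes of synthesis supply the membranes of neurons and myelin.

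The stretches before the start sites of 4 members are shown as a description, and their part in the results was not tested. Insig1 and Cpt1a were the members called, Hmgcs1 is a sterol enzyme whose level hardly moved, and Hadhb shares its upstream stretch with Hadha. Each holds the 250 bases before the start site in the RefSeq promoter table, 5′ to 3′. Capitals mark matches on either strand to the sterol regulatory element core TCACNCCAC, the E-box CACGTG, the inverted CCAAT box ATTGG, or AGGTCA, the core hexamer bound by thyroid hormone and other nuclear receptors.
Insig1, GRCm38.p6 chr5:28071162-28071411, plus strand: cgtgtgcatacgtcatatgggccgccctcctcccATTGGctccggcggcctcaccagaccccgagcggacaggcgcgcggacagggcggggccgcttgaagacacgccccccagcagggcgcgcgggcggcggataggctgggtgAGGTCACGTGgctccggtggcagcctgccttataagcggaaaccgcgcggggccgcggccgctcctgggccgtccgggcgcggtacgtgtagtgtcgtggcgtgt
Cpt1a, GRCm38.p6 chr19:3323051-3323300, plus strand: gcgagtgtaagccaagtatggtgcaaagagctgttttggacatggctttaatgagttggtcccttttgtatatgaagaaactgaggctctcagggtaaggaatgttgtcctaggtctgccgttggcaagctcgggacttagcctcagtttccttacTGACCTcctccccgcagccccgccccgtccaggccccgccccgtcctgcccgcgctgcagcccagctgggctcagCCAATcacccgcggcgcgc
Hmgcs1, GRCm38.p6 chr13:119690101-119690350, plus strand: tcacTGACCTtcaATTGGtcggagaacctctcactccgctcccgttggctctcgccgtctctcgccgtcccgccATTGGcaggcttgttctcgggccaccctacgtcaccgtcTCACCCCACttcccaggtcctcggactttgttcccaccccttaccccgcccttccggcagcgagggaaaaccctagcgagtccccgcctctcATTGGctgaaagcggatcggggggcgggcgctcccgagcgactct
Hadhb, GRCm38.p6 chr5:30155003-30155252, plus strand: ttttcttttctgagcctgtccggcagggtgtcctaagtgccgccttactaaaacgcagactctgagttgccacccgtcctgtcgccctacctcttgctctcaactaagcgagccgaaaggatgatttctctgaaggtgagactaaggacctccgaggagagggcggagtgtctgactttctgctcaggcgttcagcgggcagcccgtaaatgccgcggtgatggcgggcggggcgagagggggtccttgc
The Insig1 stretch held the hexamer and an E-box overlapping as AGGTCACGTG, from -105 to -96 relative to the start site, and a CCAAT box at -216 to -212. This run of letters was taken as it stands in Insig1, so its share among all stretches is no test. It was found in 52 of the 32851 stretches of the same length before all start sites of the table, 0.158%. Cpt1a, whose table entry starts inside a longer annotated gene, held the hexamer on the opposite strand at -94 to -89 and a CCAAT box at -19 to -15. In Hmgcs1 the sterol element stood at -137 to -129, with 3 CCAAT boxes and 1 hexamer. No letters of these motifs were found in the Hadhb stretch.

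Promoter entries were found for 31 members, with 39 stretches in all. ATTGG stood in 11 of the 15 stretches of sterol enzymes (73.3%), 5 of 8 of sterol regulators (62.5%), 3 of 8 of fatty acid synthesis genes (37.5%) and 2 of 8 of oxidation genes (25%), against 33.8% of all stretches. AGGTCA stood in 4 of 8 stretches of oxidation genes (50.0%), those of Cpt1a, Cpt1c, Acadvl and Acadm, against 14% of all. It stood in 4 of 15 stretches of sterol enzymes (26.7%), of which 3 belong to Dhcr7, so that by gene it was 2 of 12 (16.7%), in 1 of 8 of sterol regulators (12.5%) and in 2 of 8 of fatty acid synthesis genes. CACGTG was found in Insig1, Dhcr7 and Hsd17b7, in 3 of 39 stretches (7.69%) against 6.02%, and TCACNCCAC in Hmgcs1 alone (2.56% against 1.05%). The spaced repeat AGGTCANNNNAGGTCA, the classic arrangement bound by thyroid hormone receptors, had no match in any member and stood in 0.0152% of all stretches. A match is a description of the letters in these windows.

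The hormone response itself was present on the arrays: the known targets Hr and Klf9 rose 3.78-fold and 3.63-fold (adjusted p = 1.28e-05 and 3.42e-05, limma). The arrays had median log2 values of 6.09 to 6.15, and 3 arrays per group limit the precision. Of the cell type markers, 2 of 10 neuron genes rose, against 2.28% of all genes called higher: Prph (0.94 on the log2 scale) and Snap25 (0.33), the latter losing its call without any 1 array (adjusted p 0.0584 to 0.156). The mean level of that list was 9.5 to 9.72 on the control arrays and 9.78 to 9.88 on the T3 arrays. Its median log2 change was only 0.07, with 7 genes above 0 and 3 below. Prph and Nefl (0.71, adjusted p = 0.202) had the largest changes, and Elavl3 (-0.13), Gap43 (-0.09) and Uchl1 (-0.02) lay below 0. Of 6 smooth muscle genes Myh11 rose (0.60) and Tagln (-0.72) and Acta2 (-0.38) fell, 50% called against 3.1% of all genes. Myh11 and Acta2 lost their calls without any 1 array. These changes were opposite in sign, and the mean level of the list was 7.54 to 7.67 in controls and 7.6 to 7.67 with T3. Of 6 endothelial genes 1 fell, Kdr (-0.41), or 16.7%, and 5 lay above 0 (mean level 5.78 to 5.99 and 5.83 to 6.1). None of the 8 progenitor and glia, 6 fibroblast, 4 myelinating glia, 7 adipocyte, 6 macrophage or 6 epithelial genes passed the limma test, with 2, 1, 1, 1, 0 and 0 at an unadjusted p under 0.05. Progenitor and glia genes (10.52 to 10.61 in controls) and fibroblast genes (10.79 to 10.9) were bright, while adipocyte genes averaged 5.19 to 5.39 in controls and 5.34 to 5.49 with T3. The defining adipocyte genes Adipoq and Fabp4 stayed between 3.76 and 4.29 on every array, below the arrays' 25th percentile of 4.47 to 4.53. Of the same list, Lipe lay above the array medians and was separated, at 8.06, 7.96 and 7.93 with T3 against 7.62, 7.79 and 7.63 (0.30, adjusted p = 0.0887), and Plin1 had 6.62, 5.97 and 5.93 against 5.87, 5.69 and 5.95 (0.34, adjusted p = 0.476). Cidec (-0.18) and Lep (-0.02) lay below 0 and Retn was at 0.06. The median change of the adipocyte list was 0.06, with 5 genes above 0 and 2 below. The part of the neuron, muscle, endothelial and adipocyte markers in the results below was not tested, and in spheres of mixed cells fewer cells of a type and less RNA per cell cannot be told apart.

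T3 left most of these genes near their control level. Only Cpt1a rose and only Insig1 fell by the limma test at an adjusted p under 0.05, and the other members did not pass. That is 2 of 37 members or 5.41%, against 3.1% of all genes called (2.28% higher and 0.823% lower). The T3 arrays lay wholly above the controls for 3 members and wholly below for 3, against 19.5% of all genes separated in either direction. An unadjusted p under 0.05 was reached by 4 members upwards (8.92% of all genes) and 1 downwards (4.8% of all genes). The groups of members differed in where their changes lay: the median log2 change was -0.01 for the sterol enzymes, 0.02 for fatty acid synthesis and 0.18 for fatty acid oxidation, beside 0.01 over all genes. The oxidation genes as a group lay above their control means on each T3 array, by a median of 0.15, 0.20 and 0.17 for T3 replicates 1 to 3, against -0.04, 0.06 and -0.03 on the control arrays. For the sterol enzymes the same medians were -0.10, -0.02 and 0.07 against -0.04, -0.01 and 0.05, and for fatty acid synthesis 0.07, -0.02 and 0.02 against -0.02, -0.03 and 0.05, so that the groups of arrays overlapped in both. These shares and medians are descriptions of small lists, with no test. The lists were chosen with earlier results of these data known.

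**Figure D1:**
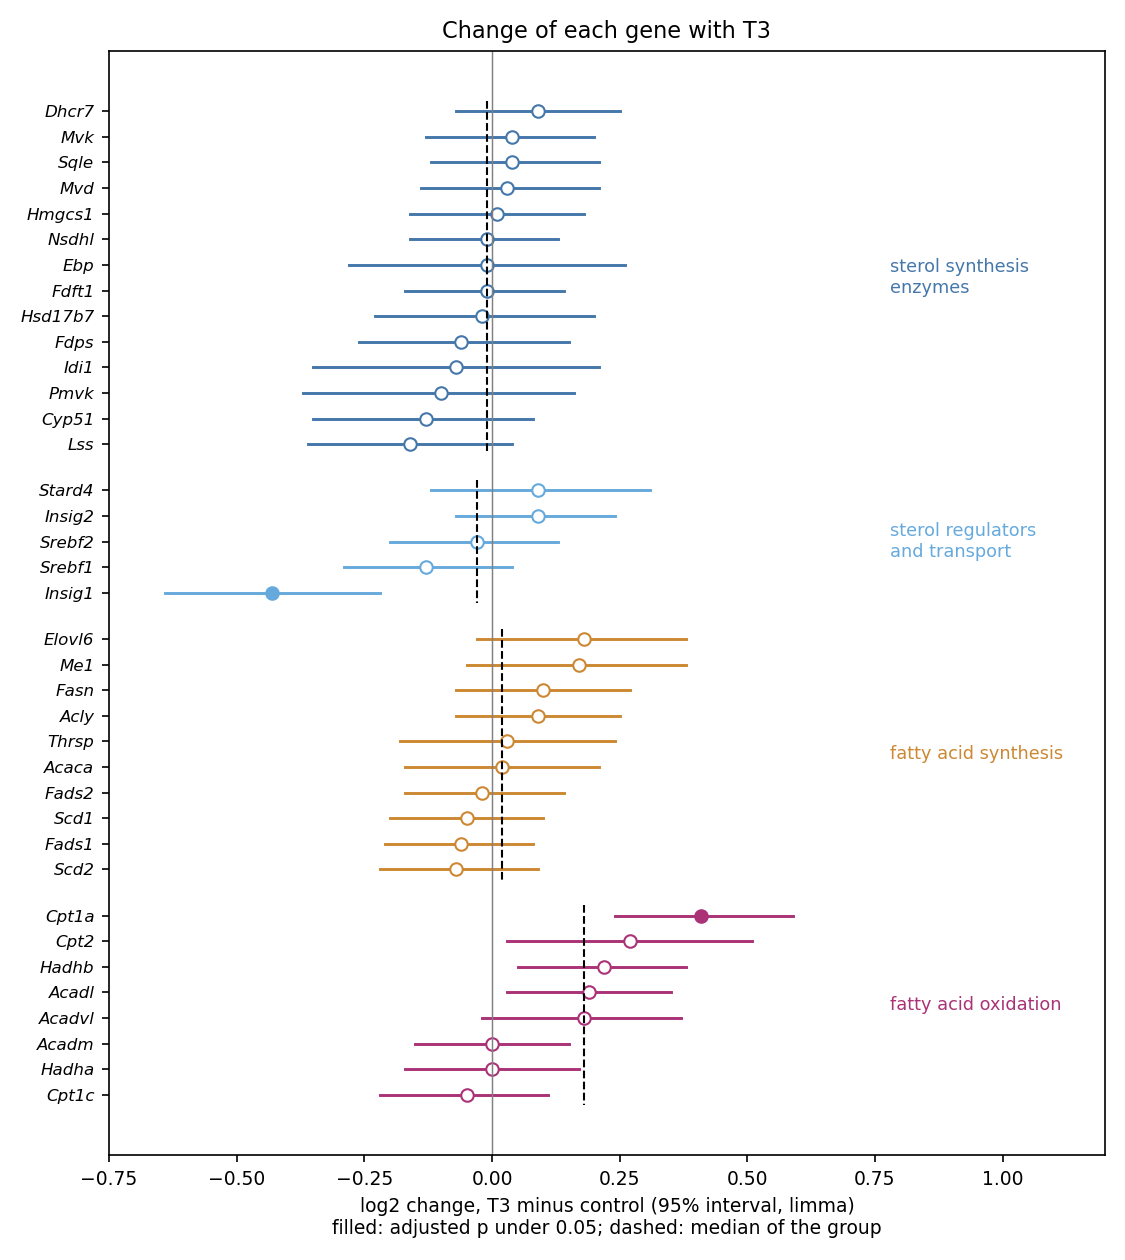
Log2 change of each of the 37 genes, T3 minus control, with its 95% interval from limma, by role; filled points are called at an adjusted p under 0.05 and dashed lines are group medians. Sterol and fatty acid synthesis genes straddle 0, 5 of the 8 oxidation genes lie at or above 0.18, and Insig1 stands alone at -0.43.

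The 14 enzymes of sterol synthesis did not pass the test in either direction, and none had an unadjusted p under 0.05 (adjusted p 0.5 to 0.991, limma). Their changes ran from -0.16 for Lss to 0.09 for Dhcr7, with 5 above 0 and 9 below. All 95% intervals of the 14 changes lay between -0.37 and 0.26, so that for none of them does the interval reach a fall below 0.775-fold or a rise above 1.19-fold. In none of the 14 were the T3 and control arrays separated.

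The early steps make isoprenoid units. Hmgcs1, the synthase of HMG-CoA, had a log2 change of 0.01 ± 0.07 (SE), with values of 9.66 to 9.81 with T3 and 9.69 to 9.80 without. Mevalonate kinase Mvk had 0.04, phosphomevalonate kinase Pmvk -0.10, the decarboxylase Mvd 0.03 and the isomerase Idi1 -0.07. Pmvk measured 6.86, 6.80 and 7.08 with T3 and 6.98, 6.84 and 7.23 in controls. Replicate 3 was the highest in both groups and the groups overlapped. The farnesyl diphosphate synthase gene Fdps changed by -0.06 and squalene synthase Fdft1 by -0.01.

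From squalene onwards the picture was the same. Squalene epoxidase Sqle, a rate-controlling step, had a change of 0.04 and Nsdhl, Hsd17b7 and Ebp, which trim and rearrange the sterol ring, -0.01, -0.02 and -0.01. Lss, which closes squalene epoxide into lanosterol, measured 8.68, 8.80 and 8.93 with T3 and 8.92, 8.90 and 9.05 in controls. T3 replicates 1 and 2 were the lowest arrays, but T3 replicate 3 lay among the controls, and the change of -0.16 ± 0.09 (SE) had adjusted p = 0.5 (limma). Cyp51, the lanosterol demethylase, had 7.77, 7.91 and 8.11 with T3 against 8.05, 8.10 and 8.03, with T3 replicate 3 the highest of all arrays (-0.13, adjusted p = 0.648). Dhcr7, the last reductase before cholesterol, had 8.86, 8.82 and 8.94 against 8.73, 8.83 and 8.80, with overlapping groups (0.09, adjusted p = 0.713). Fdft1 and Idi1 had second probe sets, with changes of -0.01 and -0.12.

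Of the regulators, Insig1, which encodes a sterol-sensing anchor of the SREBP proteins, fell to 0.742-fold. It measured 8.75, 8.97 and 9.05 with T3 and 9.34, 9.30 and 9.42 in controls. All 3 T3 arrays lay below all 3 control arrays, and T3 replicate 1 was the lowest. The log2 change was -0.43 ± 0.09 (SE) with adjusted p = 0.0430 (limma). The call rested on all 6 arrays: without any 1 of them adjusted p ran from 0.0623 (without control replicate 2) to 0.158 (without control replicate 1), with changes of -0.49 to -0.34. It was also lost when each array was centred on its median (adjusted p = 0.0799).

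The other regulators did not pass. Insig2, the paralog of Insig1, measured 9.06, 9.0 and 8.96 with T3 and 8.89, 8.90 and 8.96 in controls, where T3 replicate 3 met control replicate 3 (0.09 ± 0.07 SE, adjusted p = 0.693). Srebf1, the gene of the SREBP1 proteins, had 10.42, 10.36 and 10.34 against 10.53, 10.41 and 10.57. Its change was -0.13 ± 0.07 (SE), with adjusted p = 0.543, and control replicate 2 lay within the T3 range. Srebf2, which encodes SREBP2, had 10.82, 10.66 and 10.69 against 10.78, 10.73 and 10.76, with T3 replicate 1 the highest array (-0.03, adjusted p = 0.934). Stard4, a carrier of cholesterol between membranes, varied more with T3 (7.88, 7.69 and 8.03) than in controls (7.81, 7.74 and 7.77), with a change of 0.09 and adjusted p = 0.791.

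**Figure D2:**
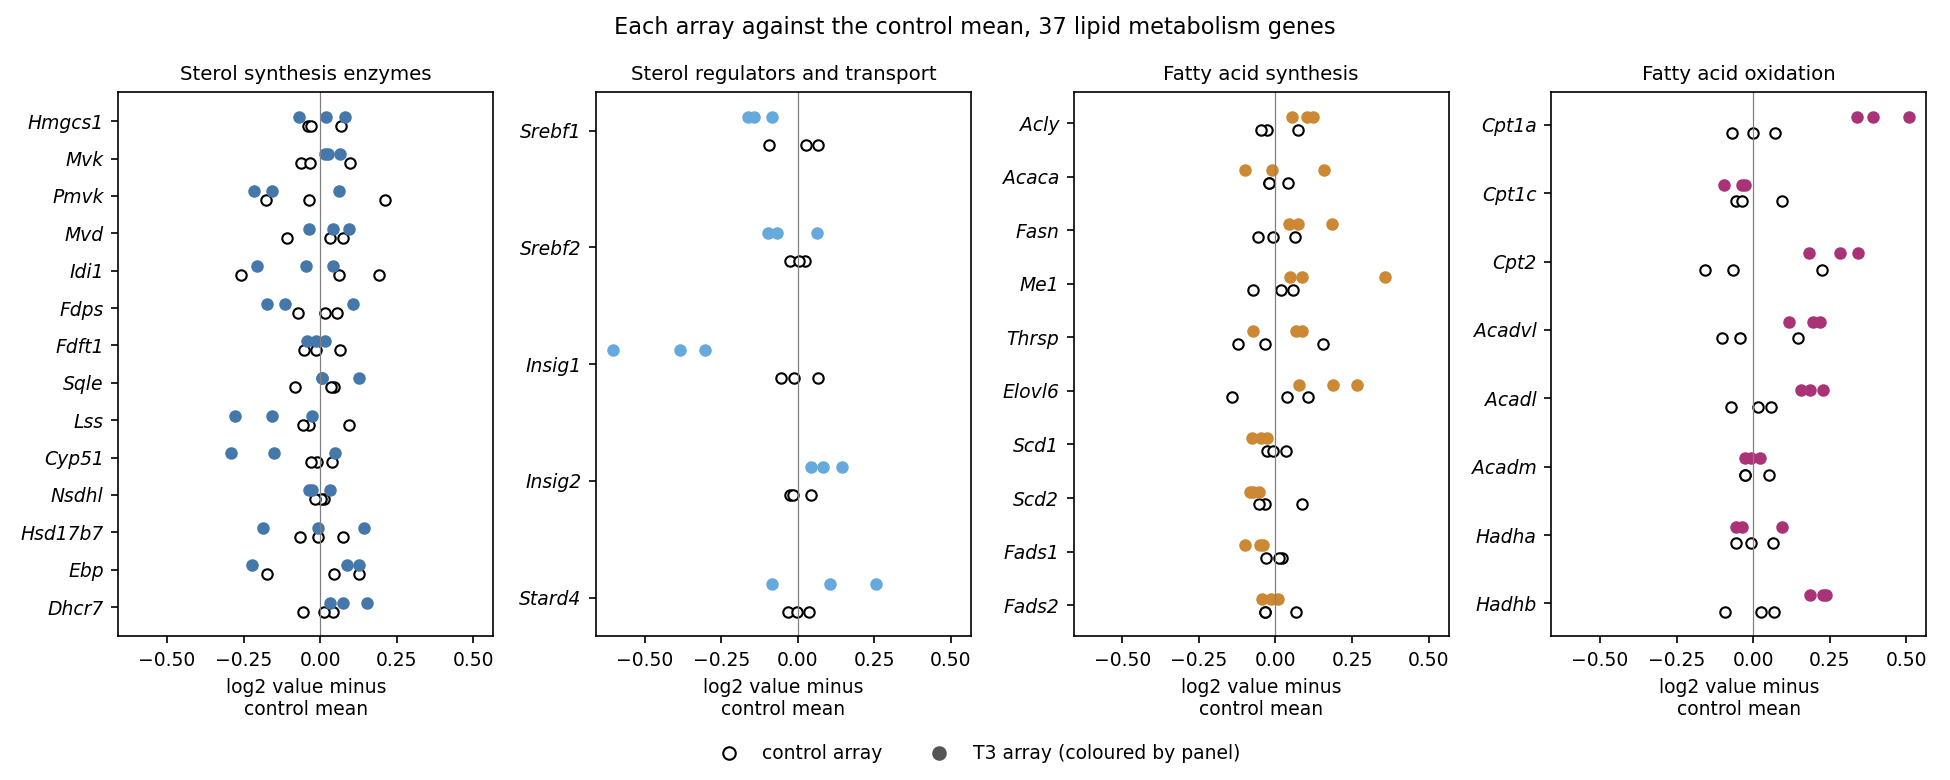
Log2 value of each gene on each of the 6 arrays minus the mean of its 3 control arrays, in 4 panels by role; open circles are control arrays and filled circles T3 arrays. The T3 arrays separate clearly from the controls for Insig1, Cpt1a, Acadl and Hadhb, and interleave with them for the sterol enzymes.

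Genes of fatty acid synthesis, among them the best-known lipogenic targets of thyroid hormone in liver, did not pass either. Changes of the 10 genes ran from -0.07 to 0.18, and their 95% intervals lay between -0.22 and 0.38, or 0.856-fold to 1.3-fold. No gene of this group had an unadjusted p under 0.05, and adjusted p ran from 0.461 to 0.976 (limma). Thrsp, the thyroid hormone-responsive Spot 14 gene, measured 5.43, 5.29 and 5.45 with T3 and 5.24, 5.33 and 5.52 in controls. These values lay below every array's median and it is not known whether they were above background (0.03 ± 0.09 SE, adjusted p = 0.961).

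Among the enzymes that supply carbon and reducing power, Me1, malic enzyme, a source of NADPH, measured 10.57, 10.30 and 10.26 with T3 against 10.23, 10.27 and 10.14. T3 replicate 1 stood well above the rest, and the change of 0.17 ± 0.09 (SE) had adjusted p = 0.531. A second probe set, with a change of 0.21, again had T3 replicate 1 as its highest array. Acly, which makes cytosolic acetyl-CoA from citrate, had 9.93, 9.86 and 9.91 against 9.78, 9.76 and 9.88, with T3 replicate 2 below control replicate 3 (0.09, adjusted p = 0.686). Fasn, fatty acid synthase, had 10.90, 10.76 and 10.79 against 10.71, 10.66 and 10.78 (0.10 ± 0.07 SE, adjusted p = 0.677). Acetyl-CoA carboxylase Acaca had 0.02, and 0.05 on its second probe set.

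The elongase and desaturase genes split by sign but stayed small. Elovl6, which extends palmitate, measured 10.52, 10.71 and 10.63 with T3 and 10.48, 10.55 and 10.30 in controls, and control replicate 2 lay above T3 replicate 1 (0.18 ± 0.09 SE, adjusted p = 0.461). Scd1 and Scd2, which make monounsaturated fatty acids, had changes of -0.05 and -0.07, and Fads1 and Fads2, the delta-5 and delta-6 desaturases, -0.06 and -0.02. Scd2 and Fads1 were lower on all T3 arrays than on all control arrays, though for Scd2 only by less than the last decimal given (12.57, 12.54 and 12.55 against 12.59, 12.57 and 12.71). These were 2 of the 10 genes or 20%, beside 7.55% of all genes with groups separated downwards. Their adjusted p values were 0.807 and 0.792 (limma), and the differences of -0.07 and -0.06 were about the size of their SE of 0.07 and 0.06.

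In fatty acid oxidation, Cpt1a rose 1.33-fold, and Cpt2, Hadhb, Acadl and Acadvl had log2 changes of 0.18 to 0.27 that did not pass, while Acadm, Hadha and Cpt1c lay within 0.05 of their controls. Cpt1a, the liver-type carnitine palmitoyltransferase at the outer mitochondrial membrane, measured 11.37, 11.25 and 11.20 with T3 and 10.86, 10.93 and 10.79 in controls. The lowest T3 array stood above the highest control array. Its log2 change was 0.41 ± 0.08 (SE, 95% interval 0.24 to 0.59) with adjusted p = 0.0267 (limma). The call was kept without control replicate 2 (adjusted p = 0.0327) and lost without any 1 of the other arrays: 0.0782, 0.0973 and 0.0667 without T3 replicates 1, 2 and 3, and 0.126 and 0.0746 without control replicates 1 and 3.

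Among the other genes of the group, Hadhb, the thiolase subunit of the mitochondrial trifunctional protein, measured 9.25, 9.29 and 9.30 with T3 and 9.09, 9.13 and 8.97 in controls, with no overlap (0.22 ± 0.07 SE, adjusted p = 0.186). A second Hadhb probe set gave 0.21. Acadl, the long-chain acyl-CoA dehydrogenase, had 9.66, 9.62 and 9.59 against 9.45, 9.49 and 9.36, also without overlap (0.19 ± 0.07 SE, adjusted p = 0.239). Cpt2, the inner-membrane partner of CPT1, had 9.21, 9.27 and 9.11 against 8.77, 8.86 and 9.15. Control replicate 3 lay within the T3 range, and the change of 0.27 ± 0.11 (SE) had adjusted p = 0.287. Acadvl, the very long-chain dehydrogenase, showed the same high control replicate 3, with 8.47, 8.57 and 8.55 against 8.25, 8.31 and 8.5 (0.18, adjusted p = 0.422). T3 arrays were thus separated upwards in 3 of the 8 genes, Cpt1a, Acadl and Hadhb, or 37.5%, beside 11.9% of all genes. The members were chosen with earlier results of these data known, so this share is no test.

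Acadm, the medium-chain dehydrogenase, had a mean of 9.62 in both groups, and Hadha, the partner subunit of Hadhb, a mean log2 value of 11 in both. Cpt1c, the CPT1 paralog of neurons that sits in the endoplasmic reticulum, had a change of -0.05 ± 0.07 (SE, 95% interval -0.22 to 0.11). The 95% intervals of Acadm, Hadha and Cpt1c ended at 0.15, 0.17 and 0.11, below the change measured for Cpt1a, with adjusted p of 0.997, 0.998 and 0.872 (limma).

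Related genes were compared within arrays for 6 pairs. The gap between Cpt1a and Cpt1c differed between the groups by 0.47 ± 0.08 (SE), being 1.77, 1.59 and 1.54 with T3 and 1.23, 1.14 and 1.13 in controls. For Insig1 minus Insig2 the difference was -0.52 ± 0.12 (SE), from 0.45, 0.40 and 0.46 in controls to -0.30, -0.03 and 0.09 with T3. Hadha minus Hadhb differed by -0.22 ± 0.08 (SE). The 2 genes lie head to head with start sites 273 bases apart and share 228 of the 250 upstream bases shown above. The part of this shared stretch was not tested. In these 3 pairs the T3 and control arrays did not overlap, and each reached p = 0.1 in the exact two-sided permutation test, the smallest that 3 against 3 arrays allow, or 0.2 adjusted over the 6 pairs. Srebf1 minus Srebf2 (-0.09, exact p = 0.2), Fads1 minus Fads2 (-0.05, exact p = 0.3) and Scd1 minus Scd2 (0.01, exact p = 0.7) had overlapping arrays.

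**Figure D3:**
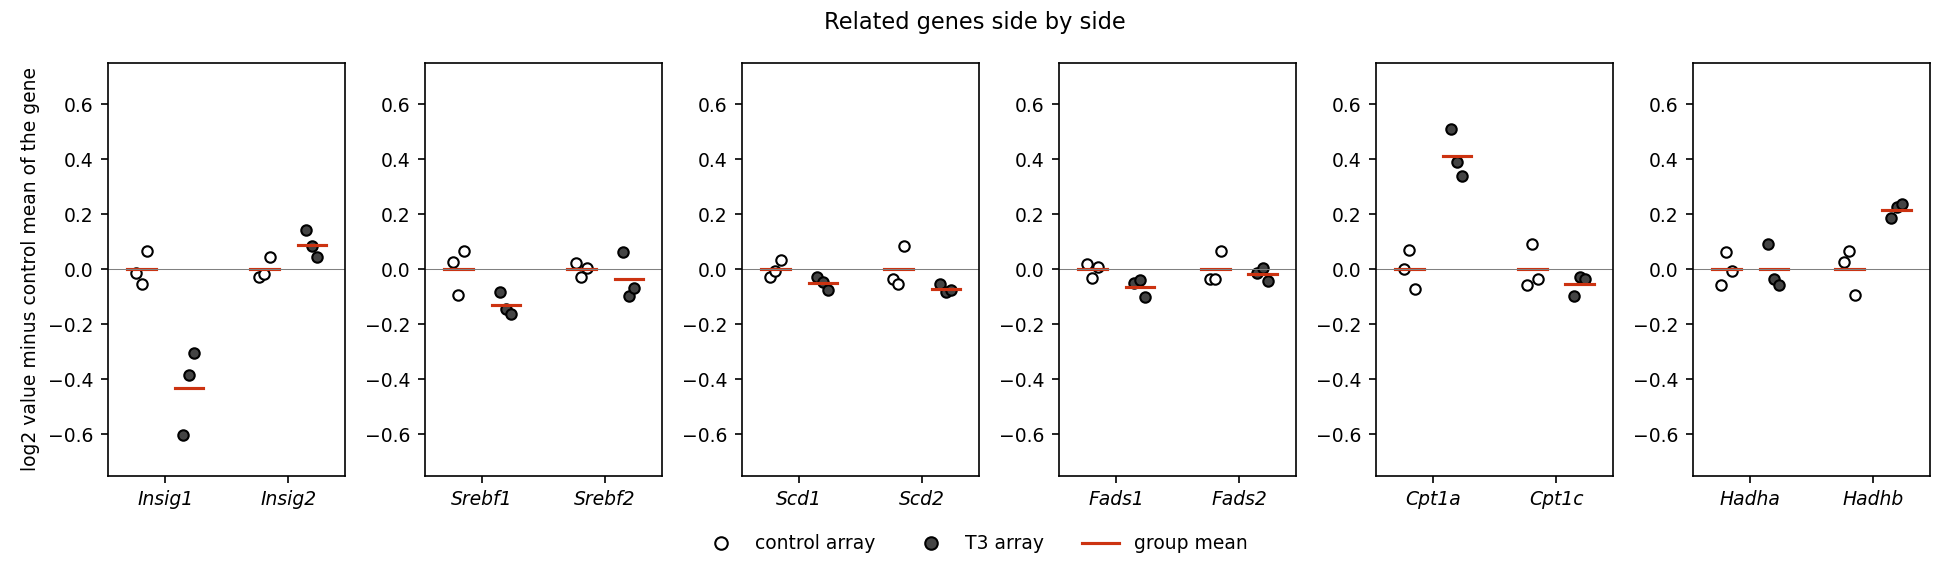
Log2 values of 6 pairs of related genes on each array, minus the control mean of each gene; open circles are control arrays, filled circles T3 arrays and bars group means. Within the pairs of Insig1 with Insig2, Cpt1a with Cpt1c and Hadha with Hadhb, the mean change of 1 gene lies within 0.09 of 0 and that of the other further out.

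Other genes of the same pathways were read from lists chosen with earlier results of these data known, so their shares are descriptions and no test. Of the 80 measured, 4 rose and 2 fell, 7.5% against 3.1% of all genes (2.28% higher and 0.823% lower). Among 6 further sterol synthesis genes none passed by limma (1 at an unadjusted p under 0.05, the desaturase Sc5d at 0.18, adjusted p = 0.296), with Msmo1, a lanosterol-path oxidase, at -0.16 and Acat1, an acetyl-CoA thiolase, at 0.18. Among 16 genes of sterol sensing, uptake, efflux and storage none passed (3 at an unadjusted p under 0.05). The nearest were Abca1, the cholesterol exporter, with 10.36, 10.21 and 10.10 with T3 against 9.88, 9.85 and 9.84, and Lrp1, a lipoprotein receptor, with 10.66, 10.47 and 10.47 against 10.96, 10.86 and 10.84. Both pairs of groups were separated, with changes of 0.36 (adjusted p = 0.0565) and -0.35 (adjusted p = 0.0604). Without T3 replicate 1, Lrp1 passed (-0.41, adjusted p = 0.0462). The lysosomal cholesterol exporter Npc1 had -0.26 (adjusted p = 0.148).

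Beyond the carnitine gate, Acaa2, the mitochondrial thiolase of the last oxidation step, rose 1.39-fold, from 10.01, 10.20 and 10.02 to 10.59, 10.60 and 10.47 (0.47 ± 0.08 SE, adjusted p = 0.0197). Ppargc1a, a coactivator of mitochondrial and oxidation genes, rose 1.9-fold, from 7.61, 8.04 and 7.71 to 8.63, 8.79 and 8.72 (adjusted p = 0.00495). Its second, dimmer probe set had a change of 0.84 that did not pass (adjusted p = 0.0905). Pdk4, the kinase that closes pyruvate dehydrogenase when fat is burned, rose 1.64-fold, from 6.44, 6.97 and 6.71 to 7.66, 7.33 and 7.28 (0.71 ± 0.15 SE, adjusted p = 0.0381). Fabp5, a fatty acid carrier, fell to 0.765-fold, from 9.64, 9.65 and 9.59 to 9.2, 9.2 and 9.32 (-0.39 ± 0.07 SE, adjusted p = 0.0229). The calls of Acaa2 and Pdk4 were kept only without control replicate 2 and lost without any other array (adjusted p up to 0.109 and 0.139). The Fabp5 call did not survive leaving out control replicate 1 or any of the T3 arrays (adjusted p up to 0.119). Of the 35 genes of fatty acid uptake and oxidation measured beside the members, 3 rose, 1 fell and 31 did not pass (11.4% called, against 3.1% of all genes), and 26 had a change above 0 (74.3%, against 53.3% of all genes). The list was chosen with earlier results of these data known, so these shares are no test.

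Among 23 further genes of fatty acid and glycerolipid synthesis, 1 rose and 1 fell, 8.7% called against 3.1% of all genes. The list was chosen with earlier results of these data known, so this share is no test. Both genes act at consecutive steps towards phosphatidic acid. Gpam, the mitochondrial acyltransferase that starts glycerolipid synthesis, went from 9.04, 9.04 and 9.13 to 9.59, 9.56 and 9.53, a rise of 1.41-fold (adjusted p = 0.00748, limma). Agpat2, which adds the next acyl chain, went from 10.67, 10.63 and 10.66 to 10.13, 10.10 and 10.13, a fall to 0.693-fold (adjusted p = 0.00441). Within each group the arrays of both genes lay within 0.1 of each other, and the groups were far apart. Agpat2 and, on its brighter probe set, Ppargc1a passed with each array left out in turn, while Gpam lost its call without control replicate 1 (adjusted p = 0.0527). Acsl5, which activates long-chain fatty acids, had 0.36 (adjusted p = 0.0536).

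**Figure D4:**
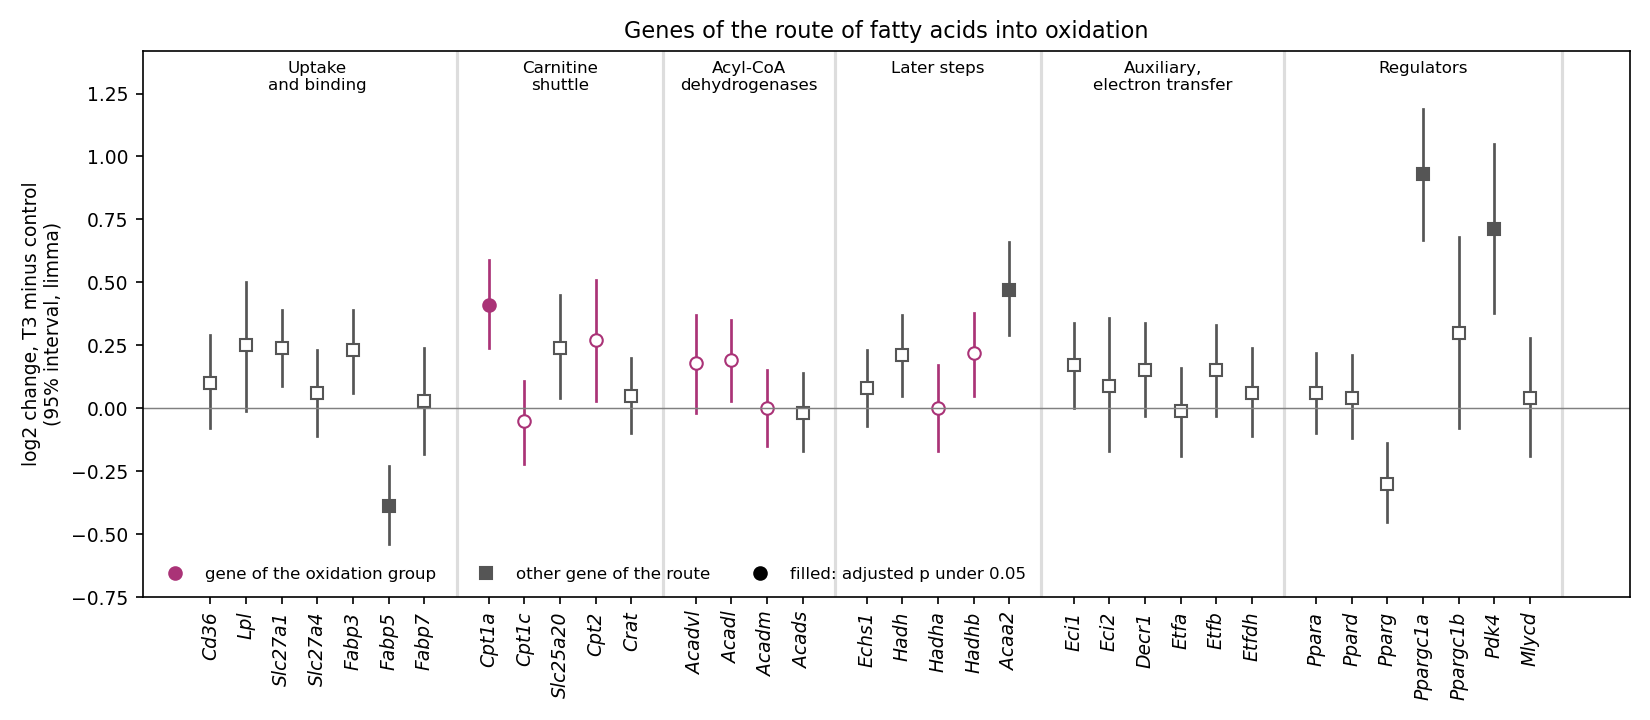
Log2 change, T3 minus control, with 95% interval from limma, for genes along the route of fatty acids into mitochondrial oxidation; circles are the members of the oxidation group, squares other genes of the route, filled where called at an adjusted p under 0.05. Cpt1a at 0.41, Acaa2 at 0.47, Pdk4 at 0.71 and Ppargc1a at 0.93 are the filled points above 0, and Fabp5 at -0.39 is the filled point below.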

How the data were processed

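Total RNA of 6 samples was measured on 1 array each. The authors deposited log2 expression values for 35556 probe sets, made with RMA and Partek version 6.5 per the submitters' processing notes; its settings and the genome build are not named in any source used. RMA as usually run normalizes arrays by quantiles, which removes a change common to most genes and compresses dim ones. The values carry no detection calls.

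Probe sets were named through the platform annotation (21789 with 1 symbol, 1621 with several, 12146 not listed), and each gene kept its probe set of highest mean, leaving 19938 genes. T3 minus control was tested with limma 3.58.1 in R 4.3.3 (lmFit, eBayes), two-sided, Benjamini-Hochberg adjusted over all genes. An adjusted p of a single gene is from this fit unless an array left out, another probe set or another alternative is named with it. SE is that of the limma change. The fit and the permutation test were tested on simulated data. Probe sets of related genes or copies can share signal, which was not examined.

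All measured members are named. Values per array are given for called members and the 4 of smallest p in each group, for Thrsp, Me1, Fasn, Srebf1, Srebf2 and Cpt1a, and for some others chosen after their values were seen. Of each list of other genes, those called and the 3 of smallest p are named. The members and lists were chosen with earlier results of these data known. Cell type markers were read as 9 lists. Deviations of same-numbered arrays from their group means correlated at 0.179, 0.017 and 0.000 over genes, so the numbers were not taken to pair the samples. Alternatives tried were the replicate block, quantile normalization once more, arrays centred on their median or 75th percentile, leaving out the dimmest 25% of genes, the mean or the lowest of a gene's probe sets, trend and robust fitting, array weights and leaving out each array.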

Additional observations from a re-analysis of the deposited data

How the results depend on the processing

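With all arrays kept, the medians of the groups of genes stayed within the spread between arrays under every alternative except centring on the array median, which moved the oxidation median from 0.18 to 0.21. With 1 array left out they ran from -0.06 to 0.02 (sterol enzymes), -0.04 to 0.02 (all sterol genes), -0.01 to 0.08 (fatty acid synthesis) and 0.16 to 0.19 (oxidation).

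The calls depended more on the arrays. The count of members called lower went from 1 to 0 with the replicate block and with centring on the median, and was 0 without any 1 array; members called higher were 0 to 1 without 1 array and 5 with array weights. Array weights, which gave control replicate 1 a weight of 6.18 and the other arrays 0.414 to 1.69, called 2451 genes higher and 1097 lower, and 22 and 6 of the other pathway genes. They also called Cpt2 (adjusted p = 0.00724), Acadvl (0.0113), Hadhb (0.0199) and Acadl (0.0409), which passed under no other alternative. Trend and robust fitting called 261 genes lower, and it and the filter on dim genes each called 7 other pathway genes higher and 4 lower. Without 1 array, 134 to 516 genes were higher and 57 to 124 lower, with 1 to 4 and 1 to 2 of the other pathway genes. With the replicate block (a paired analysis), adjusted p was 0.0542 for Insig1 and 0.0483 for Cpt1a, and Fabp5 (0.0611) and Pdk4 (0.0751) lost their calls. Abca1 and Lrp1 passed with the filter on dim genes, with trend and robust fitting and with array weights, and Abca1 also with centring on the median. Acsl5 passed with quantile normalization once more (adjusted p = 0.0464), the filter on dim genes (0.0387), trend and robust fitting (0.0283) and array weights (0.00111), Npc1 with trend and robust fitting (0.0374) and array weights (0.00641), and Sc5d (0.0129) and Acat1 (0.027) with array weights. The cause of these differences was not tested.

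Changes near 0 turned sign. Centring on the median gave Fdft1 0.02, Nsdhl 0.02, Hsd17b7 0.01, Ebp 0.02, Fads2 0.01, Acadm 0.03 and Hadha 0.03, and centring on the 75th percentile Hmgcs1 -0.02 and Acaca -0.01. Array weights gave Fdft1 0.03, Mvd -0.01, Hsd17b7 0.09, Ebp 0.20, Acaca -0.01, Fads2 0.01, Cpt1c 0.01, Acadm 0.03 and Hadha 0.02. Without 1 array the ranges were -0.03 to 0.05 for Hmgcs1, -0.20 to 0.03 for Idi1, -0.04 to 0.02 for Fdft1, -0.02 to 0.07 for Mvd, -0.19 to 0.00 for Pmvk, -0.10 to 0.07 for Hsd17b7, -0.10 to 0.10 for Ebp, -0.05 to 0.08 for Acaca, -0.03 to 0.11 for Thrsp, -0.03 to 0.02 for Fads2, -0.02 to 0.03 for Acadm, -0.05 to 0.03 for Hadha and -0.01 to 0.04 for Scd1 minus Scd2. The other pair differences kept their sign.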

Other observations

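Several lipid genes outside the members, chosen after their values were seen, were separated between the groups without passing the limma test over all genes. Of all genes, 19.5% were separated in either direction. Pparg, the master regulator of fat storage, measured 7.16, 7.07 and 7.17 with T3 and 7.41, 7.48 and 7.41 in controls, a log2 change of -0.30 ± 0.07 (SE, adjusted p = 0.0624). Acsl6, an acyl-CoA synthetase of brain, had 6.94, 6.89 and 6.94 against 6.61, 6.65 and 6.66 (0.28, adjusted p = 0.0602). Of the other elongase genes, Elovl2, which extends polyunsaturated chains, had a change of -0.46 (adjusted p = 0.0745). It measured 5.7, 5.38 and 5.73 with T3 and 6.02, 5.95 and 6.22 in controls. These values lay near or below the array medians of 6.09 to 6.15, and it is not known whether they were above background. Elovl7 had a change of 0.32 (adjusted p = 0.0954), Elovl5 0.22 (adjusted p = 0.262) and Elovl1 -0.07 (adjusted p = 0.808). The arrays of Elovl1 overlapped.

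Along the mitochondrial route, Slc25a20, the carnitine carrier between CPT1 and CPT2, had 8.35, 8.39 and 8.48 with T3 against 8.0, 8.23 and 8.26, and Hadh, the short-chain hydroxyacyl dehydrogenase, 10.73, 10.74 and 10.78 against 10.49, 10.63 and 10.49. Their changes were 0.24 and 0.21 with adjusted p = 0.243 and 0.210 (limma). Slc27a1, a fatty acid transport protein, had 0.24 (adjusted p = 0.104), and Lipe, the hormone-sensitive lipase, 0.30 (adjusted p = 0.0887).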
